A study of Homo sapiens with 6 samples.

Results

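The proteasome subunit genes examined here are those whose symbol is PSM, a letter from A to G and a number. The rule found 48 of the 26334 gene symbols in the files, with 103 of the 51398 isoforms, and it uses no measured value. RNA-Seq had been performed on PC-9 cells, a human lung adenocarcinoma line with an activating EGFR deletion. The paper's cell lines were grown in RPMI with serum, and no drug is named in the labels or the RNA-Seq methods. The cells carried a scrambled shRNA (shScr), shRBM10#1 or shRBM10#2, with 2 libraries per condition and 6 in all. Both RBM10 shRNAs target the mRNA of RBM10, an RNA-binding protein that regulates splicing, and the labels give no separate cultures, so the p-values cover the spread between libraries alone. Control libraries are called shScr in the labels and in the paper's Results and parental in its methods, and the label was followed.

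The proteasome degrades proteins that carry ubiquitin chains. Its 20S core particle is a barrel of stacked rings, in which alpha subunits form the gate and the beta subunits PSMB6 (beta1), PSMB7 (beta2) and PSMB5 (beta5) hold the active sites. The 19S regulatory particle caps the barrel, where its ATPases unfold the substrate and its non-ATPase subunits bind the chain and remove ubiquitin. After interferon exposure, and constitutively in many immune cells, PSMB9, PSMB10 and PSMB8 replace PSMB6, PSMB7 and PSMB5 and form the immunoproteasome, known for generating peptides for MHC class I.

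RBM10 itself stood at 83.2 and 86.2 CPM in shScr, 59.8 and 56.4 in shRBM10#1, and 27.2 and 26.9 in shRBM10#2 (CPM, counts scaled to library size with the TMM method). It fell by 31.4% with shRBM10#1 (log2 FC -0.54 ± 0.07, FDR 0.000228; ± is the SE throughout). With shRBM10#2 it fell by 68.1% (log2 FC -1.65 ± 0.07, FDR 5.1e-08), and the levels of the 3 conditions did not overlap. Summed expected counts of a library were between 31953729 and 37557507. The 8 epithelial markers, keratins among them, summed to 23348 to 29564 TPM, and the leukocyte, fibroblast and endothelial lists to 0.330 to 0.860, 2.02 to 2.94 and 6.02 to 12.7 TPM. All 4 leukocyte and all 4 fibroblast markers were below 3 TPM in each library. The shScr replicate 2 library stands apart in its mean fragment, 231 nt as implied by the effective lengths, against 265 to 281 nt in the other 5. Of the tested proteasome genes with an effective length below 1500 nt, 9 of 32 were higher in shScr replicate 2 than in replicate 1, against 8 of 14 longer ones. Over all tested genes, 930 of 3113 short and 6228 of 11104 long genes were higher there.

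Proteasome transcripts were abundant and made up 0.656% to 0.692% of the counts of a library. Levels are compared between genes in TPM, which is scaled by length. PSMA7 was the highest member with a mean of 798 TPM over the 6 libraries (738 to 877), ahead of the beta1 subunit PSMB6 with 516 TPM. The 14 constitutive core genes had a median of 317.2 TPM and ranged down to 59.6 TPM for PSMA5, so subunits present once per ring differed more than 10-fold in transcript level. The 17 subunit genes of the 19S particle had a median of 126.9 TPM, from 65.3 TPM for the lid subunit PSMD11 to 349.9 TPM for the scaffold subunit PSMD2. Lower levels were found for PSMG1, a chaperone that pairs with PSMG2 to build the alpha ring (32.7 TPM), and for PSME4, the PA200 activator (20.3 TPM, the lowest of the 46 genes that passed the filter). The summed TPM of the core genes lay between 4211 and 4528 and that of the 19S genes between 2523 and 3050, with the highest 19S sum in shScr replicate 2.

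**Figure D1:**
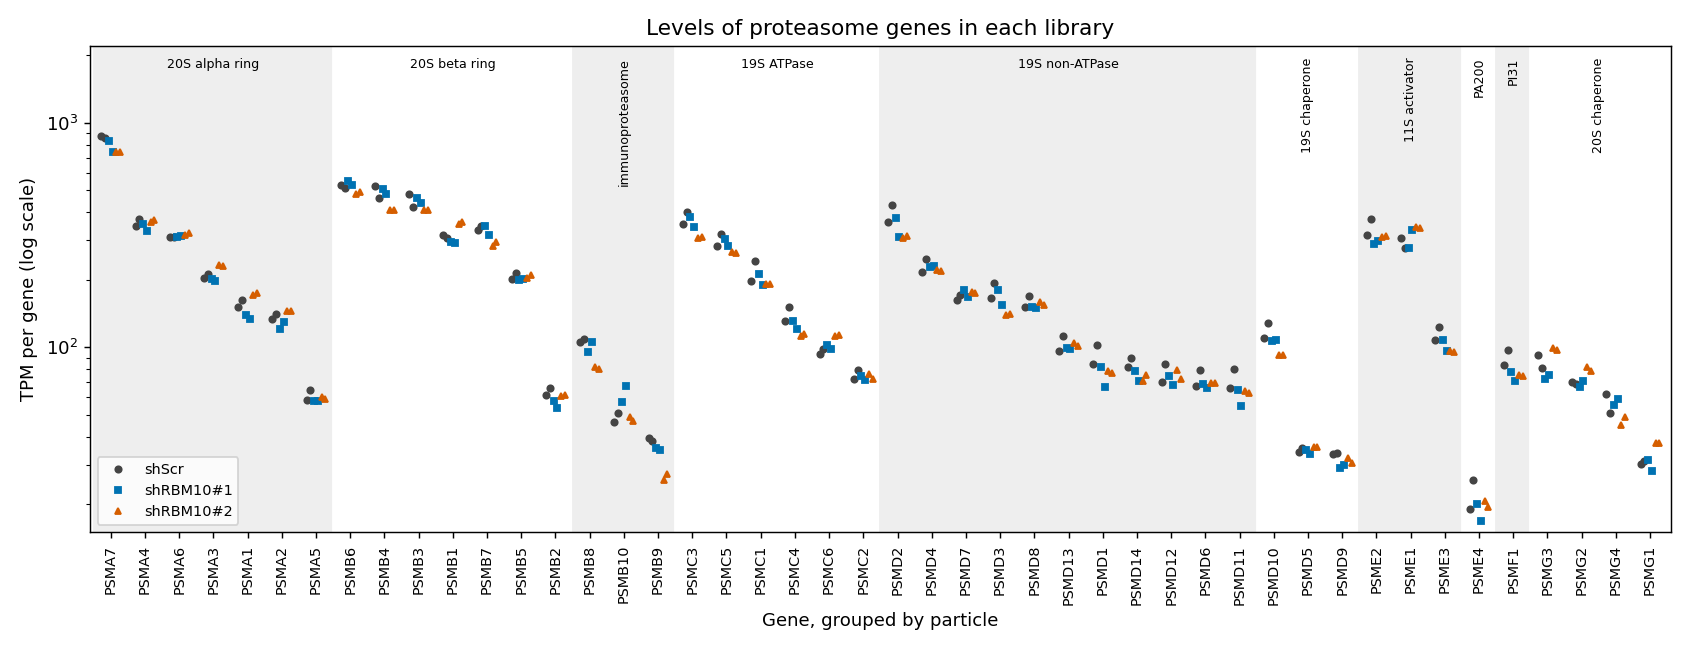
Each point is the TPM of a gene in 1 library on a log axis, for the 46 proteasome genes that passed the filter, grouped by particle and ordered by mean level within a group. Grey circles are shScr, blue squares shRBM10#1 and orange triangles shRBM10#2. PSMA7 lies at the top and PSME4 at the bottom, and the orange triangles of PSMB9 and PSMB8 lie below both other conditions.

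PSMA8, the alpha subunit of testis, was at 0 in all 6 libraries. PSMB11, the beta5 subunit of thymic epithelium, was at 0 in 5 libraries with a trace in shRBM10#2 replicate 2, so its mean was 0.0117 TPM. These 2 genes failed the low-count filter, and every count below is over the other 46.

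Gene totals changed little with shRBM10#1 and more often with shRBM10#2, by the quasi-likelihood test of edgeR with Benjamini-Hochberg adjustment over all 14217 genes tested. With shRBM10#1, PSMB10 alone passed an FDR of 0.05 among the 46 genes, and the other 45 had a log2 FC between -0.23 and 0.14. That is 2.17% of the members, where 14% of all genes passed (7.13% higher and 6.91% lower). With shRBM10#2, 6 proteasome genes rose and 11 fell, which is 37.0% of the members beside 25.9% of all genes (12% higher and 13.9% lower). The 6 that rose were PSMA1, PSMA3, PSMB1, PSMC6, PSMG1 and PSMG2. The 11 that fell were PSMB4, PSMB7, PSMB8, PSMB9, PSMC3, PSMC4, PSMD2, PSMD3, PSMD10, PSME3 and PSMF1. The log2 FC of the members lay between -0.51 and 0.34 with shRBM10#2. No proteasome gene reached an absolute log2 FC above 1 with its FDR below 0.05, a criterion that 1.88% of all genes met with shRBM10#1 and 1.3% with shRBM10#2. The median log2 FC of the 46 genes was -0.0070 with shRBM10#1 and -0.039 with shRBM10#2, beside 0.0079 and 0.0054 over all genes tested.

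The count for shRBM10#2 rests on both of its libraries. Without either of them 1 proteasome gene passed, namely PSMB9 on each occasion, while 8.44% of all genes did without replicate 1 and 6.603% without replicate 2. It was 11 (6 higher, 5 lower) without shScr replicate 1 and 9 (1 higher, 8 lower) without shScr replicate 2, beside 15.2% and 16.4% of all genes. Correcting for transcript length by an offset made it 19, beside 30.6% of all genes, and the split of higher and lower moved from 6 and 11 to 4 and 15. With limma on log2(TPM + 1) it was 7, all lower, beside 11.6% of all genes.

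**Figure D2:**
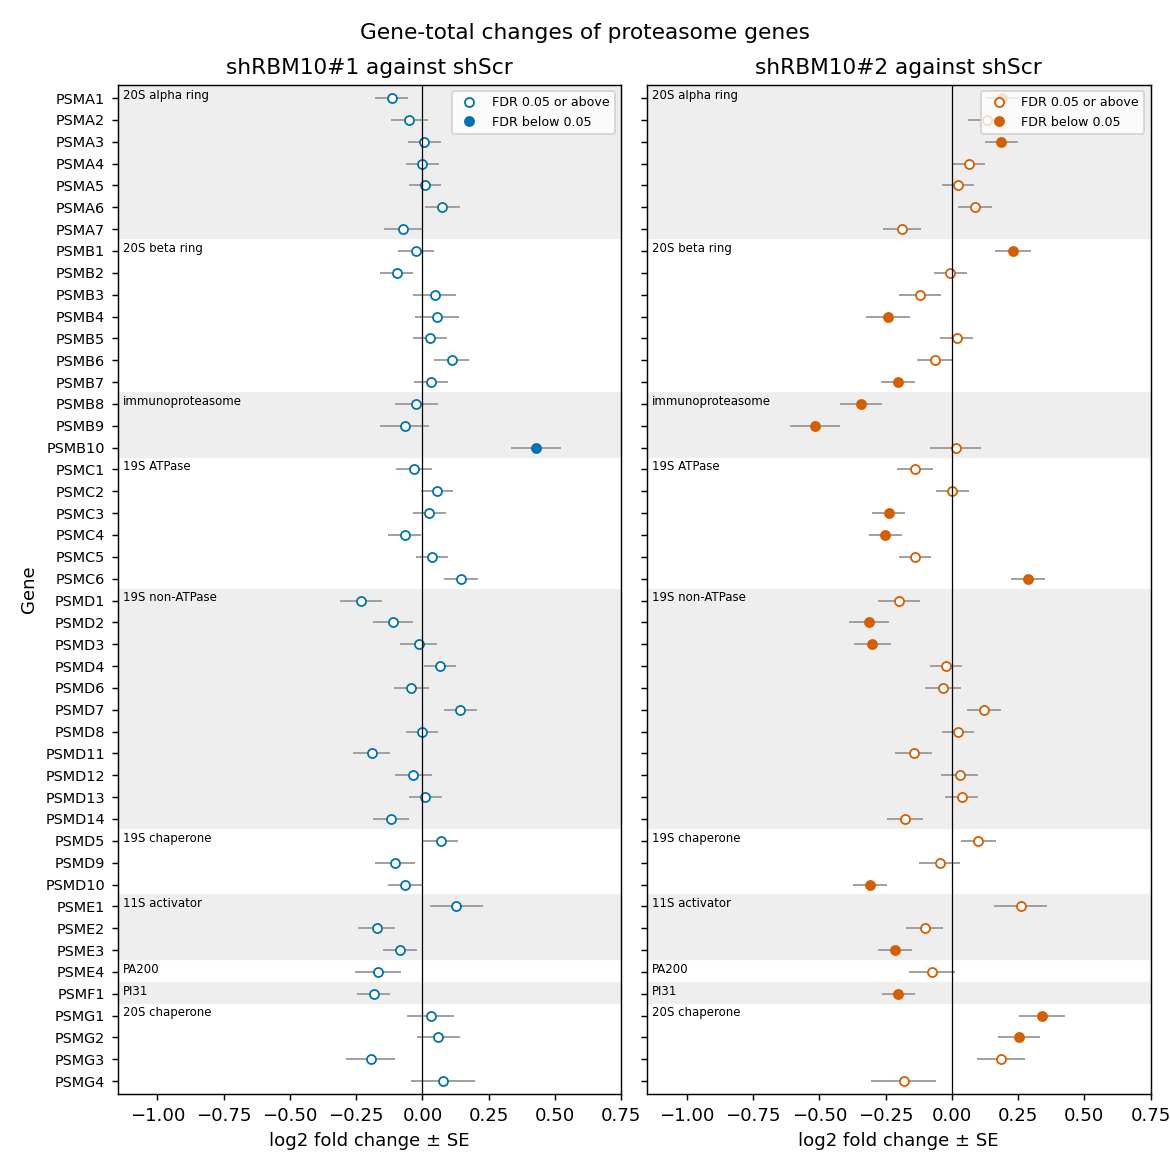
Points are the log2 FC of gene totals against shScr for shRBM10#1 (left) and shRBM10#2 (right), with bars of 1 SE, for the 46 tested proteasome genes in order of particle. Filled points passed an FDR of 0.05 in edgeR. On the left PSMB10 alone is filled, and on the right 17 points are filled, with PSMB9 at -0.51 the farthest from 0.

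In the alpha ring of the core, 2 of 7 genes rose with shRBM10#2 and none fell, beside 12% higher and 13.9% lower over all genes. PSMA1 stood at 102 and 99.5 CPM in shScr, 93.4 and 92.9 in shRBM10#1, and 114 and 117 in shRBM10#2. Both shRBM10#2 libraries lay above the other 4, and the shRBM10#1 libraries were the lowest pair (log2 FC 0.19 ± 0.06, FDR 0.0380 for shRBM10#2 against shScr). PSMA3 had 103 and 98.5 CPM in shScr, 101 and 102 in shRBM10#1, and 114 and 115 in shRBM10#2, again with shRBM10#2 on top (log2 FC 0.19 ± 0.06, FDR 0.0404). Neither call held with the length offset, with the replicate numbers as a block, with limma on TPM, or without any 1 of the 4 libraries compared. PSMA7, the most abundant alpha subunit, had 464 and 415 CPM in shScr, 434 and 401 in shRBM10#1, and 382 and 390.4 in shRBM10#2, and the lowest pair was shRBM10#2, without passing (log2 FC -0.19 ± 0.07, FDR 0.0736). PSMA2, PSMA4, PSMA5 and PSMA6 had a log2 FC between 0.02 and 0.13 with shRBM10#2, and none passed. With shRBM10#1 no alpha gene passed, and the 7 had log2 FC values from -0.12 to 0.08.

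The constitutive beta ring was mixed, with 1 of 7 genes higher and 2 lower with shRBM10#2, beside 12% and 13.9% of all genes. PSMB1, a structural beta subunit without an active site, had 141 and 128 CPM in shScr, 131 and 134 in shRBM10#1, and 155 and 161 in shRBM10#2. The shRBM10#2 libraries were above the rest (log2 FC 0.23 ± 0.07, FDR 0.0236), although without shScr replicate 2 the call was lost. PSMB4, another subunit without an active site, had 238 and 195 CPM in shScr, 227 and 223 in shRBM10#1, and 182 and 184 in shRBM10#2. The shScr libraries differed from each other by more than their mean differed from that of shRBM10#2 (log2 FC -0.24 ± 0.08, FDR 0.0471), and no call was left without shScr replicate 1, with the replicate block or with limma on TPM. PSMB7, the beta2 subunit with trypsin-like activity, stood at 173 and 165 CPM in shScr, 177 and 168 in shRBM10#1, and 143 and 151 in shRBM10#2, so the shRBM10#2 libraries were the lowest of the 6 (log2 FC -0.20 ± 0.06, FDR 0.0346). This call was lost with the replicate block, with limma on TPM and without any 1 of the 4 libraries compared. PSMB6, the beta1 subunit with caspase-like activity, did not pass, at 212 and 193 CPM in shScr, 219.8 and 218 in shRBM10#1, and 190.2 and 198 in shRBM10#2 (log2 FC -0.06 ± 0.07, FDR 0.525). PSMB5, the beta5 subunit with chymotrypsin-like activity and the main target of bortezomib, did not pass, at 141 and 134 CPM in shScr, 138 and 142 in shRBM10#1, and 137 and 142 in shRBM10#2 (log2 FC 0.02 ± 0.06, FDR 0.851). PSMB2 and PSMB3 did not pass either (-0.00 ± 0.06 and -0.12 ± 0.08). With shRBM10#1 none of the 7 passed, and their log2 FC lay between -0.10 and 0.11.

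Against shScr, the log2 FC farthest from 0 among the 46 genes was that of an immunoproteasome subunit with each shRNA, PSMB10 with shRBM10#1 and PSMB9 with shRBM10#2. PSMB8 and PSMB9 fell with shRBM10#2, and PSMB10 rose with shRBM10#1. The promoters of these genes are shown because the immunoproteasome genes are known to respond to interferon. The windows run from 250 bases before to 50 after the gene start (position 0) in RefSeq on GRCh38.p14. The core of the interferon-stimulated response element, searched on both strands as a pair of GAAA runs 2 bases apart, was present in 1255 of 35116 windows of all genes (3.57%) and in 7 of 51 windows of proteasome genes (13.7%), those of PSMA4, PSMB4, PSMB8, PSMB10, PSME1, PSME2 and PSMG4. PSMB8 holds it on the opposite strand at position -4 (chr6:32844042-32844071, minus-strand gene), and PSMB10 at position -21 (chr16:67936852-67936881, minus-strand gene). The window of PSMB9 holds no such run of letters but has the core of the antioxidant response element, TGACNNNGC, on the opposite strand at position -148 (chr6:32854034-32854063, plus-strand gene), as did 4687 windows of all genes (13.3%). Capitals mark the motif.
PSMB8: cctccccttcgatctgtggcTTTCGCTTTC
PSMB10: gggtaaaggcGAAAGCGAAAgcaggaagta
PSMB9: gggcggggctGCCTCGTCActtgtctcggg

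TGACNNNGC, the letters bound by NFE2L1 and NFE2L2, was found in 15 of the 51 proteasome windows (29.4%), of PSMC4, PSMC5, PSMD1, PSMD3 and PSMG1 among others. CCAAT, the box of NF-Y, was found in 20 of 51 (39.2%) and in 12155 windows of all genes (34.6%). The table matched 42 of the 48 genes, no 2 different motifs overlapped in their windows, and the matches are a description of letters and not of bound sites.

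PSMB9, the immunoproteasome beta1 subunit (chromosome 6, 32844136 to 32859585, GRCh38), had 21.4 and 18.9 CPM in shScr, 19.1 and 19.4 in shRBM10#1, and 13.6 and 14.6 in shRBM10#2. Both shRBM10#2 libraries were below all others, and PSMB9 fell by 29.99% (log2 FC -0.51 ± 0.09, FDR 0.00238). This was the only proteasome call of shRBM10#2 that held in all 8 other settings at this FDR and without each of the 6 libraries in turn, with a log2 FC from -0.60 to -0.42 and an FDR of at most 0.0425. With shRBM10#1 PSMB9 did not pass (log2 FC -0.07 ± 0.09, FDR 0.685), and shRBM10#2 was lower than shRBM10#1 by the test of that difference (log2 FC -0.45 ± 0.09, FDR 0.00495).

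PSMB8, the immunoproteasome beta5 subunit, was 65.7 and 60.5 CPM in shScr, 57.8 and 66.4 in shRBM10#1, and 50.1 and 49.5 in shRBM10#2. Again the shRBM10#2 libraries were the lowest pair, and PSMB8 fell by 21.1% (log2 FC -0.34 ± 0.08, FDR 0.00853), whereas shRBM10#1 gave -0.02 ± 0.08. The call was lost without shScr replicate 1 or either shRBM10#2 library. PSMB8 and PSMB9 are annotated on opposite strands, and their spans overlap at the ends in GENCODE 29. The RefSeq promoter stretch of PSMB9 shown above (chr6:32854034-32854063) lies past that overlap, and the counts were made on RefSeq isoforms. Whether these isoforms overlap was not tested. PSMB8-AS1 lies opposite PSMB8, so reads there cannot be assigned without the strand, which is not stated. PSMB8-AS1 held 2.87% to 5.57% as many counts as PSMB8. The identifiers of PSMB8 and PSMB9 carry a copy suffix in the files, and 1 copy of each isoform is listed.

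PSMB10, the immunoproteasome beta2 subunit, stood at 23.8 and 23.9 CPM in shScr, 28.9 and 35.2 in shRBM10#1, and 24.5 and 23.7 in shRBM10#2. Both shRBM10#1 libraries exceeded the other 4, a rise of 34.6% (log2 FC 0.43 ± 0.09, FDR 0.00946), and the shRBM10#1 libraries also differed from each other. Without shRBM10#1 replicate 2, which had the higher value, the call was lost, as it was without either shScr library and with limma on TPM. shRBM10#2 was at the level of shScr (log2 FC 0.01 ± 0.10, FDR 0.929) and below shRBM10#1 (log2 FC -0.41 ± 0.09, FDR 0.00701).

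The share of the immunoproteasome form at each catalytic site relates the members of a pair within a library. At beta1, PSMB9 made up 6.97% and 6.92% of the summed TPM of PSMB9 and PSMB6 in shScr, 6.08% and 6.22% in shRBM10#1, and 5.06% and 5.24% in shRBM10#2. The 3 conditions did not overlap there, and from 6.95% ± 0.0413 (SD, n = 2) in shScr the mean share dropped by 1.79 percentage points in shRBM10#2. At beta5, PSMB8 made up 34.4% and 33.6% in shScr, 32.2% and 34.4% in shRBM10#1, and 28.6% and 27.6% in shRBM10#2. shRBM10#2 was again apart and shRBM10#1 overlapped shScr. At beta2, PSMB10 made up 12.3% and 12.8% in shScr, 14.2% and 17.5% in shRBM10#1, and 14.8% and 13.7% in shRBM10#2, so both shRNAs lay above shScr. With 2 libraries per condition the exact permutation test (two-sided) cannot go below p = 0.333, which it gave for 7 of the 9 comparisons. The transcripts of the immunoproteasome were thus a minority at each site, and the ratio of transcripts is not a ratio of assembled particles.

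**Figure D3:**
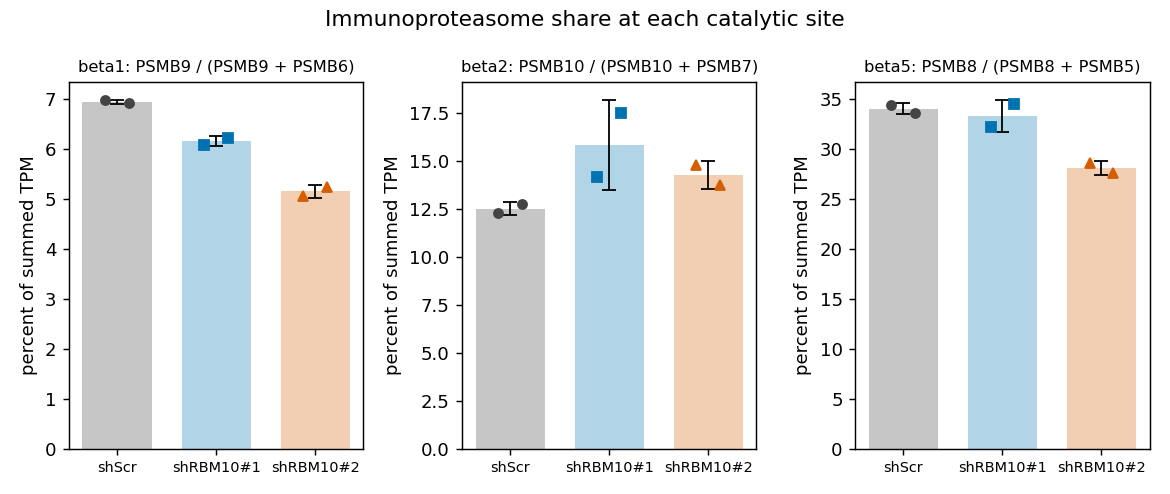
Bars are the mean share of the immunoproteasome subunit in the summed TPM of the subunit pair at beta1, beta2 and beta5, with points for the 2 libraries of each condition and error bars of 1 SD. At beta1 and beta5 both shRBM10#2 libraries lie below all others, and at beta2 both shScr libraries are the lowest.

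Genes that act beside the immunoproteasome in presenting peptides were followed too. Of 12 interferon-linked genes, 5 fell with shRBM10#1 (TAP1, TAP2, HLA-B, ERAP1 and ERAP2), beside 6.91% of all genes, and with shRBM10#2 4 fell (TAP1, TAP2, ERAP1 and ERAP2) and B2M rose, beside 13.9% and 12%. TAP1, a subunit of the peptide transporter whose gene lies on the other strand within the annotated span of PSMB9, had 44.4 and 44.3 CPM in shScr, 34.4 and 33.3 in shRBM10#1, and 34.0 and 33.5 in shRBM10#2 and fell with both shRNAs (log2 FC -0.39 ± 0.07, FDR 0.00251 and log2 FC -0.40 ± 0.07, FDR 0.00179), while PSMB9 passed with shRBM10#2 alone. IRF1, a transcription factor of the interferon response, did not pass with either shRNA (-0.17 ± 0.10 with shRBM10#2).

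In the 19S base, 1 of the 6 ATPase genes rose with shRBM10#2 and 2 fell, beside 12% and 13.9% of all genes. PSMC6 had 86.5 and 80.9 CPM in shScr, 93.0 and 92.1 in shRBM10#1, and 101 and 103 in shRBM10#2. The order from shScr through shRBM10#1 to shRBM10#2 had no overlap (log2 FC 0.29 ± 0.06, FDR 0.00665 for shRBM10#2 against shScr). Neither shRBM10#1 against shScr (log2 FC 0.14 ± 0.06, FDR 0.160) nor shRBM10#2 against shRBM10#1 (log2 FC 0.14 ± 0.06, FDR 0.119) passed. The call of PSMC6 was lost with limma on TPM and without either shRBM10#2 library. PSMC3 had 325 and 326 CPM in shScr, 342 and 320.3 in shRBM10#1, and 274 and 278 in shRBM10#2, with shRBM10#2 below the others (log2 FC -0.24 ± 0.06, FDR 0.0158). PSMC4 had 149.9 and 154 CPM in shScr, 148 and 142 in shRBM10#1, and 125 and 129.5 in shRBM10#2, and shRBM10#2 was lowest again (log2 FC -0.25 ± 0.06, FDR 0.0111). Both falls held in all 8 other settings, but neither held without shScr replicate 2 or without either shRBM10#2 library, and that of PSMC3 was also lost without shScr replicate 1. PSMC1, PSMC2 and PSMC5 did not pass with either shRNA, and with shRBM10#1 the 6 ATPase genes spanned log2 FC values from -0.07 to 0.14.

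Among the 11 non-ATPase subunit genes of the 19S particle, PSMD2 and PSMD3 fell with shRBM10#2 and none rose, beside 13.9% and 12% of all genes. PSMD2, a scaffold and binding site for ubiquitin-like domains, had 708 and 738 CPM in shScr, 722 and 616 in shRBM10#1, and 577 and 587 in shRBM10#2. The shRBM10#2 libraries were the lowest, and PSMD2 fell by 19.5% (log2 FC -0.31 ± 0.08, FDR 0.0108), and shRBM10#1 replicate 2 lay nearer to them than its own replicate did. Without shScr replicate 2 this call was lost. PSMD3, a lid subunit, had 223 and 229 CPM in shScr, 238 and 210.0 in shRBM10#1, and 182 and 185 in shRBM10#2, with shRBM10#2 below the other 4 libraries (log2 FC -0.30 ± 0.07, FDR 0.00860). PSMD1, the other large scaffold, had 181 and 191 CPM in shScr, 173 and 145 in shRBM10#1, and 164 and 161 in shRBM10#2 and did not pass with either shRNA (log2 FC -0.23 ± 0.08, FDR 0.0713 and log2 FC -0.20 ± 0.08, FDR 0.0826). PSMD14, the deubiquitinase of the lid, gave -0.18 ± 0.07 with shRBM10#2, and the ubiquitin receptor PSMD4 gave -0.02 ± 0.06, neither past the test. The remaining PSMD6, PSMD7, PSMD8, PSMD11, PSMD12 and PSMD13 did not pass with either shRNA and had log2 FC values between -0.19 and 0.14.

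The 3 chaperones that assemble the 19S base and leave it afterwards differed. PSMD10, also known as gankyrin, had 99.6 and 103 CPM in shScr, 94.4 and 99.4 in shRBM10#1, and 81.5 and 82.6 in shRBM10#2. Both shRBM10#2 libraries were below the rest (log2 FC -0.31 ± 0.06, FDR 0.00462), and this fall held in all 8 other settings and was lost only without either shRBM10#2 library. PSMD5 and PSMD9 gave 0.10 ± 0.07 and -0.05 ± 0.08 with shRBM10#2 and did not pass.

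The activators that compete with the 19S cap comprise the 11S rings and PA200. PSME1 and PSME2, which form the interferon-inducible PA28 ring, had different patterns. PSME1 had 156 and 130.5 CPM in shScr, 139.7 and 174 in shRBM10#1, and 171 and 172 in shRBM10#2 and did not pass (log2 FC 0.26 ± 0.10, FDR 0.0732), with a wide gap between libraries of shScr and of shRBM10#1. PSME2 had 122 and 135 CPM in shScr, 110.1 and 117 in shRBM10#1, and 118 and 121 in shRBM10#2 and did not pass (log2 FC -0.10 ± 0.07, FDR 0.309). PSME3, which forms the nuclear PA28 gamma ring, had 241 and 240.0 CPM in shScr, 235 and 218 in shRBM10#1, and 208 and 206 in shRBM10#2. It fell with shRBM10#2 (log2 FC -0.21 ± 0.06, FDR 0.0262), a call that was lost without any 1 of the 4 libraries compared and with limma on TPM. PSME4 had 91.2 and 106 CPM in shScr, 94.3 and 81.9 in shRBM10#1, and 96.4 and 91.1 in shRBM10#2 and did not pass with either shRNA (log2 FC -0.17 ± 0.09, FDR 0.231 and log2 FC -0.08 ± 0.09, FDR 0.561). PSMF1, the regulator PI31 that binds the core, had 201 and 204 CPM in shScr, 184 and 172 in shRBM10#1, and 177 and 175 in shRBM10#2, so all 4 RBM10 KD libraries were below both shScr libraries. It passed with shRBM10#2 (log2 FC -0.20 ± 0.06, FDR 0.0307) and not with shRBM10#1 (log2 FC -0.18 ± 0.06, FDR 0.0685), and the call for shRBM10#2 was lost with the replicate block, with limma on TPM and without any 1 of the 4 libraries compared.

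Of the 4 chaperones of core assembly, 2 rose with shRBM10#2 and none fell, beside 12% and 13.9% of all genes. PSMG1 had 18.2 and 17.01 CPM in shScr, 18.8 and 17.3 in shRBM10#1, and 22.1 and 22.4 in shRBM10#2, with the shRBM10#2 libraries the highest (log2 FC 0.34 ± 0.09, FDR 0.0134). Its partner PSMG2 had 41.7 and 37.0 CPM in shScr, 39.1 and 42.9 in shRBM10#1, and 47.5 and 46.3 in shRBM10#2 (log2 FC 0.25 ± 0.08, FDR 0.0337). The other pair consists of PSMG3, with 41.1 and 34.5 CPM in shScr, 30.9 and 35.1 in shRBM10#1, and 43.0 and 43.0 in shRBM10#2 (log2 FC 0.19 ± 0.09, FDR 0.150), and PSMG4, with 23.8 and 17.98 CPM in shScr, 20.6 and 23.5 in shRBM10#1, and 17.6 and 19.2 in shRBM10#2 (log2 FC -0.18 ± 0.12, FDR 0.3003), and neither passed. The calls of PSMG1 and PSMG2 were both lost without shScr replicate 2.

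The shRNAs were compared with each other because RBM10 differed between them. shRBM10#2 differed from shRBM10#1 in 14 proteasome genes, 5 higher and 9 lower, or 30.4% of the members beside 25.5% of all genes (11% higher and 14.5% lower). PSMA1, PSMA3, PSMB1, PSMG1 and PSMG3 were higher, and PSMB4, PSMB7, PSMB8, PSMB9, PSMB10, PSMC3, PSMC4, PSMD3 and PSMD10 were lower. None had an absolute log2 FC above 1, as 1.19% of all genes did. All 3 immunoproteasome genes were in the lower set, with log2 FC values of -0.45 for PSMB9, -0.41 for PSMB10 and -0.32 for PSMB8. Without shRBM10#2 replicate 1 the count of 14 was 0, with 11 genes at an unadjusted p below 0.05 and 7.99% of all genes called, and without replicate 2 it was 1. With the 4 RBM10 KD libraries as 1 group against shScr, no proteasome gene passed in edgeR, with 3 at an unadjusted p below 0.05 and 1.62% of all genes past the FDR. The mean of both shRNA coefficients in the fit by condition gave 6 (1 higher, 5 lower), beside 18.4% of all genes.

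Proteasome partners outside the rule were followed as 30 genes. With shRBM10#1, 6 fell and none rose, beside 6.91% and 7.13% of all genes. With shRBM10#2, 13 fell and 1 rose, beside 13.9% and 12% of all genes. NFE2L1, the transcription factor that raises proteasome gene expression when the proteasome is inhibited, fell with shRBM10#2 (log2 FC -0.29 ± 0.06, FDR 0.00477) and did not pass with shRBM10#1 (log2 FC -0.03 ± 0.06, FDR 0.780). DDI2, a protease needed for NFE2L1 activation, fell with shRBM10#2 (log2 FC -0.37 ± 0.10, FDR 0.0158) and did not pass with shRBM10#1 (log2 FC -0.29 ± 0.10, FDR 0.0664), and the difference between the shRNAs did not pass either (log2 FC -0.08 ± 0.10, FDR 0.604). NGLY1, a glycanase of the same route, fell with shRBM10#2 (log2 FC -0.39 ± 0.11, FDR 0.0197) and did not pass with shRBM10#1 (log2 FC -0.04 ± 0.11, FDR 0.843). KIAA0368, which encodes the proteasome adaptor ECPAS, had 172 and 181 CPM in shScr, 151 and 136 in shRBM10#1, and 129 and 125 in shRBM10#2 and fell with both (log2 FC -0.30 ± 0.07, FDR 0.0111 and log2 FC -0.48 ± 0.07, FDR 0.000643). AKIRIN2, which imports proteasomes into the nucleus, also fell with both (log2 FC -0.27 ± 0.08, FDR 0.0480 and log2 FC -0.40 ± 0.08, FDR 0.00450). TXNL1, a thioredoxin-like protein bound to the 19S particle, was the gene that rose with shRBM10#2 (log2 FC 0.23 ± 0.07, FDR 0.0256). POMP, the maturation protein of the core, gave 0.03 ± 0.07 and did not pass.

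Isoforms were examined because RBM10 regulates splicing. Of the 103 isoforms of proteasome genes, 11 were at 0 in all libraries and 84 passed the filter. No isoform passed an FDR of 0.05 with shRBM10#1 in edgeR (8 at an unadjusted p below 0.05, and 3 by DESeq2, which called 9.17% of all isoforms), where 0.0302% of all isoforms did. With shRBM10#2 against shScr 1 passed (2.26% of all isoforms), and with shRBM10#2 against shRBM10#1 3 passed (2.25%). Under DESeq2 these counts were 21 and 21, beside 17.4% and 15.98% of all isoforms, and with the replicate block or without any 1 of the 4 libraries compared they were 0. The mix of isoforms within a gene was testable in 24 proteasome genes. It changed in PSMD2 and PSMA4 with shRBM10#2 against shScr (2.75% of all genes) and against shRBM10#1 (1.92%), and in none with shRBM10#1 (0.172% of all genes, with 1 proteasome gene at an unadjusted p below 0.05). Without either shRBM10#2 library neither usage call was left.

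For PSMD2 (chromosome 3, 184298709 to 184309054, plus strand, GRCh38), a small share of expression was estimated for a form with another first exon in shRBM10#2. NM_002808 has 21 exons and 908 codons in GENCODE 29. NM_001278708 and NM_001278709 have 19 exons each and share a first exon of 105 nt (184300581 to 184300685), which lies within the third intron of NM_002808. RefSeq lists a start upstream and another at this exon. The upstream RefSeq start lies within the first exon of NM_002808 in GENCODE 29, which begins at 184298709. The bases before the RefSeq starts are shown for the upstream start (chr3:184299212-184299241) and the start of the shorter forms (chr3:184300552-184300581). Capitals mark the base at each RefSeq start.
Upstream start: gaaaaagggcggtgcgagcgggtgcgcgcG
Intronic start: gatctatttgagcagagttcatcacagtcA

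The shorter forms skip the first coding exons and open their reading frame farther downstream, with 778 codons in NM_001278708 and 749 in NM_001278709. The junction of exons 3 and 4 of NM_002808 is in neither, whereas its junction of exons 4 and 5 is in NM_001278708 too. NM_001278709 joins the same exon to a site 11 nt farther on. Capitals mark the second exon of each junction.
Exons 3 and 4, NM_002808: ggggagaataagCGTTTTGCTGCTGACATC
Exons 4 and 5, NM_002808 and NM_001278708: tgagtatgtcagGCATCTGGCAGGAGAAGT
Exons 2 and 3, NM_001278709: tgagtatgtcagGAGAAGTGGCTAAGGAGT

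NM_001278708 was estimated at 0 and 21.9 expected counts in shScr, 0 and 0 in shRBM10#1, and 1256 and 1647 in shRBM10#2. It was at 0 in 3 of the 4 libraries without shRBM10#2, and its share of PSMD2 expression was 0% and 0.110% in shScr, 0% and 0% in shRBM10#1, and 6.82% and 8.50% in shRBM10#2. Against an assumed floor of 3 counts per shRBM10#1 library the level in shRBM10#2 was 433-fold higher. The floor covers counting error alone and not the division of reads with NM_001278709, so this fold is not a minimum. NM_001278709 held 119 and 100.5 expected counts in shRBM10#1. As an isoform NM_001278708 passed against shRBM10#1 (FDR 0.0480) but not against shScr (FDR 0.0566). NM_002808 had 22901 and 24113 expected counts in shScr, 22481 and 22582 in shRBM10#1, and 20006 and 20646 in shRBM10#2, lowest in shRBM10#2 without passing (log2 FC -0.41 ± 0.08, FDR 0.0683). NM_001278709, which shares the intronic first exon, had 74.2 and 149 expected counts in shScr, 119 and 100.5 in shRBM10#1, and 168 and 190.0 in shRBM10#2 and did not pass (log2 FC 0.48 ± 0.38, FDR 0.552). The usage FDR of PSMD2 was 0.00159 for shRBM10#2 against shScr and 0.000693 against shRBM10#1. It stayed below 0.05 with the replicate block (0.0266 and 0.0237) and not with limma's diffSplice (0.0614 and 0.119). RSEM divides reads that fit several isoforms, and 96.0% of the bases of NM_001278708 are also in NM_002808. The other 105 bases are in NM_001278709 too, which shares 2574 of the 2633 bases of NM_001278708, so the intronic first exon does not tell the shorter forms apart and the estimate rests on few distinguishing positions.

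PSMA4 (chromosome 15, 78540405 to 78552419, plus strand) encodes an alpha subunit whose total did not pass (log2 FC 0.06 ± 0.06, FDR 0.486). Its isoform NM_001102667 had 371 and 356 expected counts in shScr, 389 and 340.2 in shRBM10#1, and 970.0 and 1082 in shRBM10#2. Both shRBM10#2 libraries were more than 2-fold above all others (log2 FC 1.29 ± 0.16, FDR 0.0396 against shScr, and log2 FC 1.33 ± 0.16, FDR 0.0389 against shRBM10#1). Its share of PSMA4 was 5.44% and 5.23% in shScr, 5.86% and 4.53% in shRBM10#1, and 12.2% and 12.7% in shRBM10#2. The main form NM_002789 had 6772 and 6867 expected counts in shScr, 6645 and 7542 in shRBM10#1, and 7502 and 7790.0 in shRBM10#2 and did not pass (log2 FC -0.04 ± 0.04, FDR 0.693). NM_001102667 is 76 nt shorter than NM_002789, and 76 nt is also the gap between 2 annotated ends of the first exon of PSMA4 (78540463 and 78540539), in the 5′ untranslated region. These isoforms were matched by length and not by identifier. The usage FDR of PSMA4 was 0.0191 against shScr and 0.0220 against shRBM10#1, and with the replicate block 0.0967 and 0.106. The call against shScr was lost without either shScr library (0.106 without replicate 1 and 0.161 without replicate 2).

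The third called isoform was NM_002786, the main form of PSMA1, which moved with its gene total (log2 FC 0.31 ± 0.05, FDR 0.0457 for shRBM10#2 against shRBM10#1). No other proteasome gene passed the usage test in edgeR. With limma's diffSplice, 3 passed for shRBM10#2 against shScr (8.91% of all genes), namely PSMA4, PSMB5 (FDR 0.0391, against 0.853 in edgeR) and the ATPase gene PSMC5 (FDR 0.0217, against 0.575 in edgeR). PSMB5 kept its main form NM_002797 at 83.1% to 87.5% of its expression, while its minor form NM_001130725 was at 7.32% and 9.27% in shScr, 6.45% and 9.34% in shRBM10#1, and 12.5% and 12.5% in shRBM10#2 (log2 FC 0.63 ± 0.24, FDR 0.211). PSMD11 had a minor form, NM_001270482, at 13.2% and 11.4% in shScr, 13.7% and 9.71% in shRBM10#1, and 8.58% and 6.73% in shRBM10#2 (log2 FC -0.82 ± 0.25, FDR 0.149). Its usage FDR was 0.366 for shRBM10#2 against shScr. PSMB8 was expressed mainly as NM_148919_7 (88.6% to 92.5%) in all conditions, and PSMG4 was the gene most evenly divided, with NM_001128591 at 57.4% to 69.4%.

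**Figure D4:**
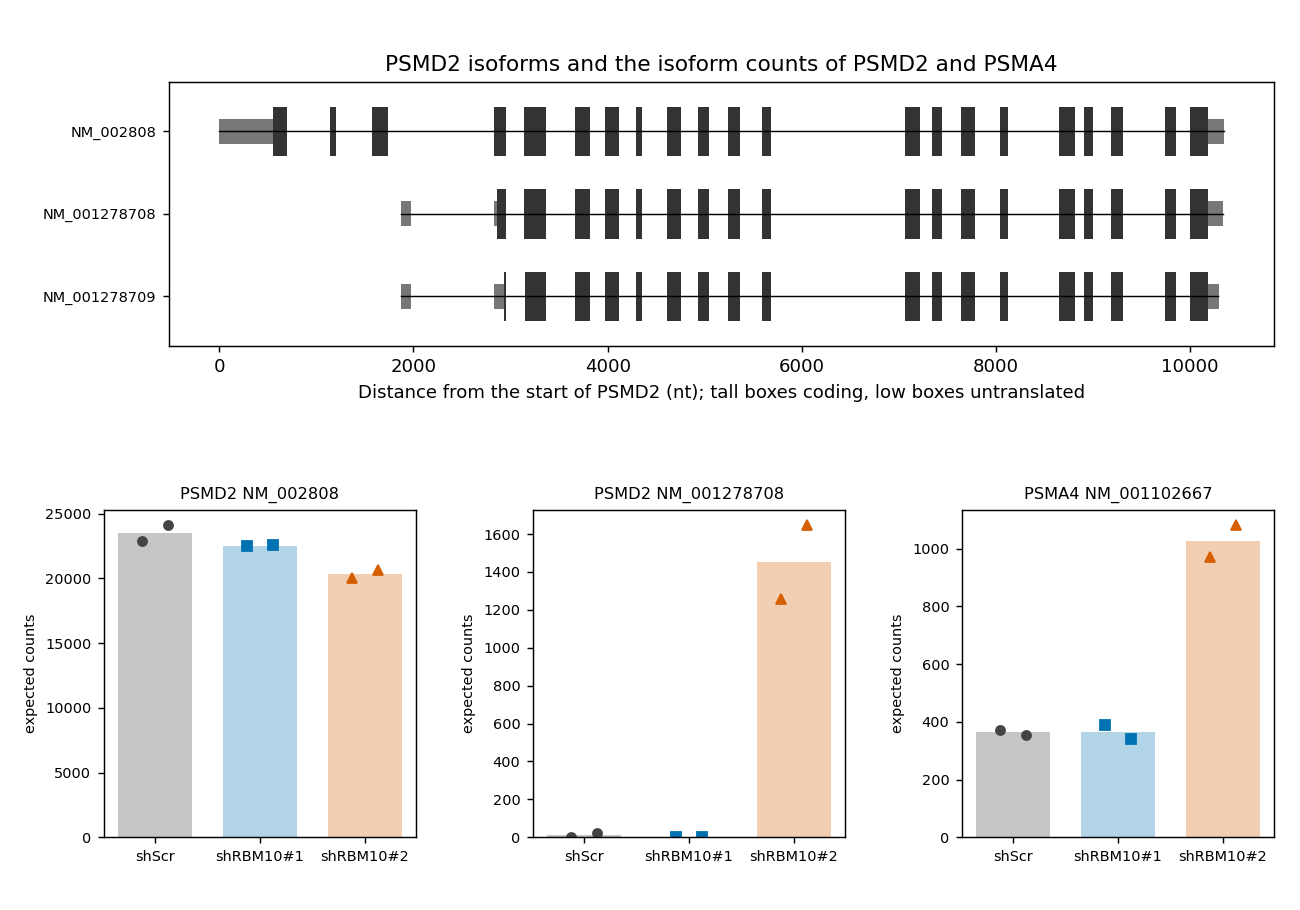
The upper panel maps the exons of the 3 PSMD2 isoforms by distance from the start of the gene, with tall boxes for coding and low boxes for untranslated parts. Below, bars are the mean expected counts and points the 2 libraries per condition of PSMD2 NM_002808, PSMD2 NM_001278708 and PSMA4 NM_001102667. NM_001278708 is at or near 0 in shScr and shRBM10#1 and at 1256 and 1647 counts in shRBM10#2.

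Antisense genes named after a proteasome gene can share its reads where the strand is unknown. PSMA3-AS1 held 10.7% to 12.9% as many counts as PSMA3, which had passed with shRBM10#2, and did not pass itself (log2 FC 0.29, FDR 0.0544). PSMG3-AS1 held 13.8% to 23.5% as many counts as PSMG3, with the lowest shares in shRBM10#2 (log2 FC -0.24, FDR 0.226). PSMD5-AS1 held 16.0% to 21.7% and PSMD6-AS2 0.404% to 1.18%, beside PSMD5 and PSMD6, whose totals did not pass.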

How the data were processed

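RNA-Seq of PC-9 cells was examined in 6 libraries, grouped by their labels. The authors quantified RefSeq isoforms with RSEM 1.2.29 after alignment with STAR 2.4 to hg19, per the submitters' processing notes. The authors deposited expected counts, which need not be whole because shared reads are split. The authors also deposited TPM, FPKM (not used here) and, per isoform, its percent of the gene total. The strand protocol is not given in the sources used here.

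Expected counts were summed per gene, rounded, scaled by TMM, filtered with filterByExpr and tested with glmQLFit and glmQLFTest of edgeR 4.0.16 (R 4.3.3) with 1 coefficient per condition, at an FDR of 0.05 by Benjamini-Hochberg. Isoform usage was tested with diffSpliceDGE (Simes). Alternatives were DESeq2 1.42.0, limma 3.58.1 on log2(TPM + 1) and by diffSplice, other filters and scaling, a length offset (loess span 0.3), a replicate block and leaving out each library. Procedures were tested on simulated data. Exact permutation tests used SciPy 1.17.1, and figures matplotlib 3.10.9. Tests were two-sided. Depth is given as total counts, and the floor of 3 counts covers counting error alone and not the division of reads among isoforms.

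Exons and gene spans are from GENCODE 29 (GRCh38) and promoters from RefSeq (GRCh38.p14), and no hg19 position was converted. Replicate isoform counts differed by more than sampling noise (chi-square per degree of freedom 11.5 to 16.5). Members and lists were chosen with earlier results of these data known. Named with values were the catalytic pairs, up to 5 largest rises and falls per comparison, usage and isoform calls, genes failing the filter, the activators, PSMF1, PSMG1 to PSMG4 and RBM10. Other members and the partner genes were named after their values were seen.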

Additional observations from a re-analysis of the deposited data

Results flagged for a closer look

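The effect of shRBM10#2 differed from that of shRBM10#1 in 14 proteasome genes by edgeR's test of the difference between the shRNAs, at an FDR below 0.05 over all genes. In the immunoproteasome, the log2 FC of shRBM10#2 against shRBM10#1 was -0.45 for PSMB9 (FDR 0.00495), -0.41 for PSMB10 (FDR 0.00701) and -0.32 for PSMB8 (FDR 0.0117). In the core it was -0.30 for PSMB4, -0.23 for PSMB7, 0.18 for PSMA3, 0.26 for PSMB1 and 0.30 for PSMA1. In the 19S particle and its chaperone it was -0.29 for PSMD3, -0.26 for PSMC3, -0.24 for PSMD10 and -0.18 for PSMC4. Among the core chaperones it was 0.31 for PSMG1 and 0.38 for PSMG3. Both shRBM10#2 libraries lay on the same side of both shRBM10#1 libraries in each of the 14 genes. The genes were chosen by a test on these same libraries, which makes such separation likely, so it adds no support to the calls. All of these calls were lost without shRBM10#2 replicate 1, and all but that of PSMB9 without replicate 2. From shRBM10#1 to shRBM10#2, RBM10 itself decreased by 53.5% (log2 FC -1.11 ± 0.07, FDR 3.7e-06), and its part in these differences was not tested.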

How the results depend on the processing

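Of the calls on gene totals, PSMB9 with shRBM10#2 kept its call under every alternative at an FDR of 0.05 alone, and no other call against shScr did. The counts of called proteasome genes with shRBM10#1 (1 as reported), with shRBM10#2 (17) and between the shRNAs (14) were within 1.5 times under DESeq2, DESeq2's size factors, at least 10 counts in every library and the fit of 2 conditions alone. With limma on log2(TPM + 1) they were 0, 7 and 6, beside 6.75%, 11.6% and 8.89% of all genes. For shRBM10#1 the count was 5 (1 higher, 4 lower) with the length offset and 2 with no filter, beside 17.2% and 13.5% of all genes. With an absolute log2 FC above 1 added, the counts were 0, 0 and 0, without PSMB9. Leaving out 1 library gave 0 to 5, 1 to 21 and 0 to 16, where a condition left with 1 library was assumed to vary like the others. For shRBM10#1 the count depended on the library left out, and the call of PSMB10 was lost without shRBM10#1 replicate 2, shScr replicate 1 or shScr replicate 2. For pooled KD the count of 0 became 6 with the mean of both coefficients and stayed 0 without each library.

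The median log2 FC of the proteasome genes was -0.052 and -0.059 for shRBM10#1 and shRBM10#2 with the length offset, -0.086 and -0.089 with limma on TPM, and 0.040 and 0.018 between the shRNAs with limma on TPM and with no filter. Leaving out 1 library gave -0.023 to 0.018, -0.040 to 0.0088, -0.046 to 0.0016 and, for pooled KD, -0.040 to 0.0060. All signs of these medians therefore depended on the library left out or on the setting. Between the shRNAs the lowest value, -0.046, came without shRBM10#1 replicate 2.

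For isoforms, DESeq2 called 3, 21 and 21 for shRBM10#1, shRBM10#2 and shRBM10#2 against shRBM10#1, beside 9.17%, 17.4% and 15.98% of all isoforms. For shRBM10#2 at least 10 counts in every library gave 7, the length offset 5 and no filter 2, beside 7.85%, 4.70% and 1.66% of all isoforms. Leaving out 1 library gave 0 to 1 and 0. The usage counts of 2 and 2 were 1 and 1 with isoforms of at least 5% of their gene's counts (2.94% and 1.79% of all genes). They were 3 and 1 with limma's diffSplice (8.91% and 5.29% of all genes), and they also depended on the library left out.

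The replicate numbers share only a label across conditions, with correlations of the deviations of same-numbered libraries from -0.019 to -0.0038 for genes and from -0.013 to -0.0093 for isoforms. With the replicate block the gene counts were 1, 12 and 12, beside 12.3%, 22.6% and 22.3% of all genes, and pooled KD 0, beside 0.366%. The isoform counts were 0, 0 and 0, where 0% of all isoforms passed in each comparison. The usage counts were 0, 1 and 1, beside 0.0625%, 1.30% and 0.749% of all genes, with PSMD2 the gene left.

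For 4 uncalled log2 FC values a change of sign when a library was left out is given here, and other values near 0 can change sign too. In PSMB2, for example, both shRBM10#2 libraries (185.0 and 187.0 CPM) lay between the shScr libraries (192.9 and 180.4 CPM). PSMD2 with shRBM10#1 ran from -0.23 without shRBM10#1 replicate 1 to 0.00085 without replicate 2. PSMB3 and PSMG4 with shRBM10#2 ran from -0.25 and -0.37 without shScr replicate 2 to 0.023 and 0.034 without replicate 1. PSME1 between the shRNAs ran from -0.017 without shRBM10#1 replicate 1 to 0.30 without replicate 2. The causes of these changes were not tested. With 2 libraries per condition, uncalled differences are not shown to be absent.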
